A study of Homo sapiens with 3 samples.

Results

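Some stretches of the genome carried bound RNA from both strands. They were sought in RNA crosslinked to CSTF2tau in an established line of human neuroblastoma cells, BE(2)-C. The 3 samples form 1 group of biological replicates of wild-type cells, each recovered with an antibody against CSTF2tau after ultraviolet crosslinking of living cells, partial digestion of the RNA and immunoprecipitation. No control antibody or input library was used here. Each replicate is a list of peaks, given in the hg19 build with a strand, an Ensembl gene ID and a whole number that was read as the reads in the peak. No source used here states that reading.

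Peaks of all 3 lists outside the mitochondrial chromosome were merged into loci wherever 2 peaks of 1 strand shared at least 1 nt. A locus was kept when it overlapped a locus of the other strand by at least 1 nt, and is called a facing locus. The rule kept 232 of 172029 nuclear loci, or 0.135% (exact 95% interval 0.118 to 0.153%), with 116 on each strand. They formed 120 facing pairs, because 224 loci faced exactly 1 other and 8 faced exactly 2. Merging without replicate 1 left 73 loci in 37 pairs, and without replicate 3 it left 91 in 46. These loci were selected on the listed positions and strands of the peaks, so their number and their overlap are descriptions. The read numbers, the replicate of origin and the position along a gene ID were not used directly by the rule. Position is still tied to it, because a facing locus lies where the peaks of opposite-strand gene IDs meet. The balance of the strands is tied to it too, because each pair holds a locus of each strand.

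CSTF2tau is a paralogue of CSTF2, the subunit of the cleavage stimulation factor that binds RNA just downstream of the cleavage site while the 3' end of an mRNA is formed. Genes on opposite strands that point at each other (convergent genes) have their 3' ends close together and can overlap there. Divergent genes start close together and run apart, and an antisense RNA can also lie within a longer gene on the other strand. The peak names hold gene IDs without symbols, so genes are given here by ID and position. The known gene pairs that had been listed by symbol were not analysed here, and no sequence was read at these positions.

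The lists differed in size, which sets how many facing loci each could supply. Replicates 1, 2 and 3 held 105203, 18346 and 78761 peaks with 736059, 108434 and 387784 reads. They listed 123, 42 and 102 of the 232 facing loci. Facing loci held 0.148%, 0.275% and 0.141% of the nuclear locus reads of replicates 1, 2 and 3, a mean of 0.188% ± 0.0752 (SD, n = 3), so replicate 2 had the highest share. Merged without replicate 1 the mean was 0.115%. In reads these were 1027 of 692922, 268 of 97595 and 510 of 362102.

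The overlap of the strands was mostly more than a touch. Its median was 52 nt, with a lowest value of 1 nt and a highest of 120 nt, and it took a median of 80.6% of the shorter locus. In 82 of the 120 pairs the overlap was at least 50% of the shorter locus, and in 41 one locus lay whole inside the other. No pair had the same start and end on both strands (0 of 120). In 43 pairs the 3' ends of the loci overlapped and in 36 their 5' ends did, so neither arrangement was the rule. At the edge of the rule, 17 pairs overlapped by 1 to 10 nt, and 10 further pairs were apart by 0 to 9 nt and were not kept. The authors' lists also mark a stretch of at most 4 nt near the middle of each peak. The nearest such stretches of the strands were a median of 31.5 nt apart, and in 27 pairs they were within 10 nt.

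Facing loci looked like other loci in size. Their median width was 76.5 nt against 74 nt for the other nuclear loci, and their median read number where listed was 6, 4 and 4 in replicates 1, 2 and 3, against 5, 4 and 4. Several gene IDs were given for 10 of the 232, or 4.31%, against 4.54% of all nuclear loci.

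The facing pairs were gathered in 1 region of chromosome 4 and otherwise scattered. Chromosome 4 held 42 of the 120 pairs, chromosomes 14 and 17 held 10 each, chromosomes 3 and 16 held 8 each, and 20 of 23 nuclear chromosomes had at least 1. Facing loci were 0.920% of the nuclear loci of chromosome 4, 0.326% on chromosome 14 and 0.255% on both 16 and 17. On chromosome 3 they were 0.122%, against 0.135% of all nuclear loci. By gene ID, 80 combinations of a plus-strand ID with a minus-strand ID had a facing pair, of which 63 had exactly 1, 13 had 2 and 4 had 3 or more. A locus listed under several IDs counts in each of its combinations. They drew on 71 plus-strand and 75 minus-strand gene IDs.

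The chromosome 4 region joined ENSG00000145362 on the plus strand with ENSG00000248152 on the minus strand and held 35 of the 120 facing pairs (29.2%, exact 95% interval 21.2 to 38.2%). The peaks of the plus-strand ID ran over 565 kb, chr4:113740306-114304950. Those of the minus-strand ID ran over 77.5 kb inside it, chr4:113915492-113992949, starting 175 kb from the left edge. Both IDs were listed in every replicate: the plus-strand ID had 3358, 619 and 1280 reads in replicates 1, 2 and 3, and the minus-strand ID had 729, 63 and 209.

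Within the shared 77.5 kb, 160 plus-strand and 93 minus-strand loci were listed, of which 32 and 34 were facing. The left end of the shared stretch held almost only plus-strand signal: its first 20 kb had 51 plus-strand loci and 1 minus-strand locus, which was facing. The minus strand took 42.0%, 18.6% and 32.6% of the reads there in replicates 1, 2 and 3, so it was the weaker strand in each. Plus-strand loci covered 19.2% of the bases of the shared stretch, and 18.7% of the bases under minus-strand loci were also under plus-strand loci. So minus-strand loci met plus-strand loci about as often as any base of the stretch did. No test was made of these shares.

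**Figure D1:**
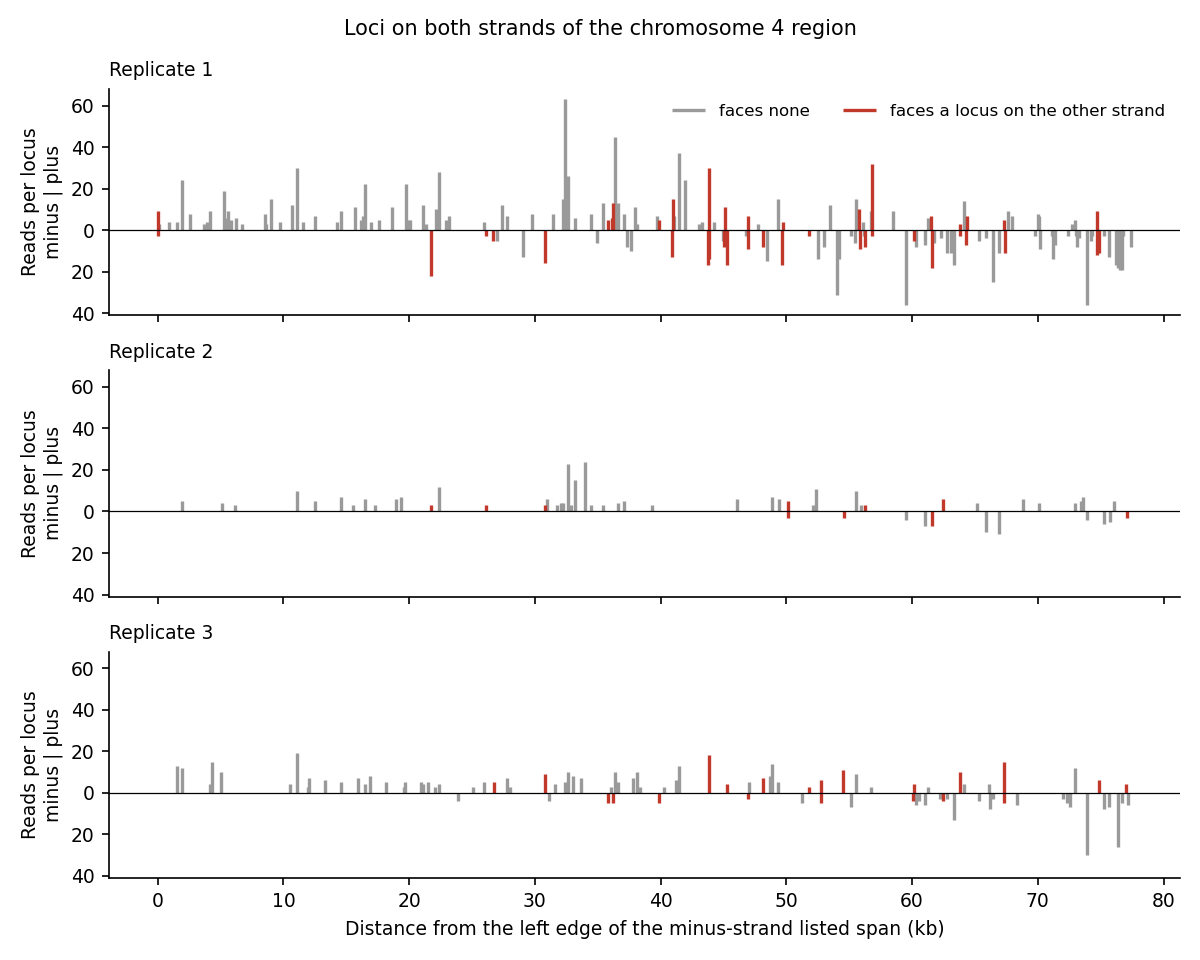
Reads per locus in the stretch shared by ENSG00000145362 (plus strand, drawn upwards) and ENSG00000248152 (minus strand, drawn downwards) in replicates 1, 2 and 3, against the distance in kb from the left edge of the minus-strand listed span. Loci that face a locus on the other strand are red; of 160 plus-strand loci 32 are facing and of 93 minus-strand loci 34 are facing, and the first 20 kb holds 1 minus-strand locus.

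The facing pairs of the region with the most reads on the weaker strand shared a 126 nt plus-strand locus at chr4:113959265-113959390. It had 30, 0 and 18 reads in replicates 1, 2 and 3. Opposite it lay a pair of minus-strand loci. The first, chr4:113959233-113959307, had 17 reads in replicate 1 and the next, chr4:113959308-113959373, had 14, and both had 0 in the other replicates. Their overlaps were 43 and 66 nt. Replicate 1 therefore listed both strands, while replicate 3 listed the plus strand alone and replicate 2 listed neither.

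Other pairs of the region also rested on replicate 1. The plus-strand locus chr4:113956389-113956486 had 15 reads there against 13 at chr4:113956338-113956431, and neither was listed in the other replicates. At chr4:113990130-113990209 the plus strand had 9 reads against 12, and at chr4:113971208-113971293 it had 10 against 9, again in replicate 1 alone. At chr4:113960523-113960639 it had 11 against 8. In these 4 pairs the stronger strand had 1.11 to 1.38 times the reads of the weaker.

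A few pairs of the region drew on several replicates. The widest plus-strand locus named, 257 nt at chr4:113982651-113982907, had 5 reads in replicate 1 and 15 in replicate 3. It faced 11 minus-strand reads in replicate 1 at chr4:113982847-113982951. A further minus-strand locus whole inside it, chr4:113982748-113982832, had 5 reads in replicate 3 alone. At chr4:113962391-113962474 the plus strand had 7 reads in replicate 1 and the minus strand had 9 in replicate 1 and 3 in replicate 3. At chr4:113976959-113977036 the plus strand had 7 reads in replicate 1 against 18 in replicate 1 and 7 in replicate 2. Taken pair by pair, none had both strands in more than 1 replicate, although the 257 nt locus was faced in replicates 1 and 3.

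Over the 35 pairs of the region, 14 had both strands in replicate 1, 1 in replicate 2 and 3 in replicate 3, 18 pairs in all. The plus strand was stronger in 17, the minus strand in 11, and 7 were equal. Facing loci there were not the strong ones: plus-strand facing loci had a median of 6.5 reads summed over replicates against 7 for plus-strand loci of the stretch that faced none, and minus-strand loci had 6 against 8. They were also less often in at least 2 replicates, 4 of 32 against 30 of 128 on the plus strand and 2 of 34 against 15 of 59 on the minus strand. These counts were not tested.

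Outside the chromosome 4 combination the facing pairs belonged mostly to gene IDs whose listed spans ran towards each other. The listed span of a gene ID is the stretch between its outermost peaks over the 3 lists, and a combination was called convergent where the 3' end of each span lay inside the other. Of the 80 combinations, 47 were convergent, 5 divergent, 6 had the minus-strand span inside the plus-strand span, 5 the reverse, and in 17 an ID had only 1 locus. The convergent ones numbered 21 without replicate 1, 12 without replicate 3, and 28 where at least 5 loci were asked of each ID. Without peaks listed under several gene IDs, 65 combinations remained, of which 37 were convergent. By pairs of loci, 52 lay under convergent IDs, 6 under divergent IDs, 40 under a minus-strand span inside a plus-strand one (the chromosome 4 region included) and 10 under the reverse. A listed span is not an annotated gene, and its ends move with what was listed.

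Convergent combinations were also the most common among all opposite-strand spans that overlapped. Of 305 combinations of gene IDs with at least 2 loci each whose spans overlapped, 157 were convergent and 24 divergent. A facing pair was present in 63 of the 305 (20.7%, exact 95% interval 16.3 to 25.6%). A pair was found in 47 of the 157 convergent ones (29.9%, 22.9 to 37.8%) and in 5 of the 24 divergent ones (20.8%, 7.13 to 42.2%). It was present in 6 of 69 combinations with the minus-strand span inside (8.70%, 3.26 to 17.97%) and in 5 of 55 with the plus-strand span inside (9.09%, 3.02 to 19.95%). The intervals of the convergent and divergent shares overlapped widely. They treat the combinations as separate, although a locus listed under several IDs counts in each of its combinations, so they are too narrow. A facing locus itself extends a span, most of all for an ID with few loci, so these shares are not independent of the rule.

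Among convergent IDs the share with a facing pair did not follow the length of the shared stretch in 1 direction. It was 40.4% (19 of 47) where under 1 kb was shared, 22.4% (15 of 67) at 1 to 10 kb and 30.2% (13 of 43) at 10 kb or more. Under 1 kb the shared stretch can be the facing overlap itself. For ENSG00000149294 with ENSG00000255129 it was 0.072 kb, and their facing loci overlapped by 72 nt. The share under 1 kb is therefore partly set by the rule, and these shares cannot show an effect of length. Away from the chromosome 4 region, plus-strand loci covered 2.11% of all bases shared by opposite spans, and 5.11% of the bases under minus-strand loci were also under plus-strand loci. In the chromosome 4 region the matching values were 19.2% and 18.7%. The spans were drawn from the same peaks, and some shared stretches are only a facing overlap. The 5.11% is therefore raised in part by the rule, and it pools spans of unlike locus density. Its difference from the 2.11% was not tested.

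Along their gene IDs, facing loci outside the chromosome 4 combination lay near the 3' end. Over gene IDs with at least 5 loci, their median position was 93.1% of the way from the 5' to the 3' end of the listed span, against 44.2% for all nuclear loci. The last 10% of the span held 69 of 127 of them (54.3%), against 15.02% of all nuclear loci. The first 10% held 10 of 127 (7.87%), against 17.1%. Under convergent IDs the median position was 98.4%, with a median of 0.997 kb to the 3' end of the span, and 29 of 83 were the 3'-most locus listed for their ID. Under divergent IDs 6 of 8 lay in the first 10%. The definition of these orientations places the shared stretch at the 3' or 5' ends, so the split by orientation restates it in part. The median of 93.1% is also partly set by the rule, because a facing locus always lies at least partly in a stretch shared by opposite spans. Unless 1 span lies inside the other, that stretch is at the span ends, and 157 of the 305 overlapping combinations were convergent. The excess over all nuclear loci was not tested. The 66 facing loci of the chromosome 4 combination had a median position of 39.2%.

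**Figure D2:**
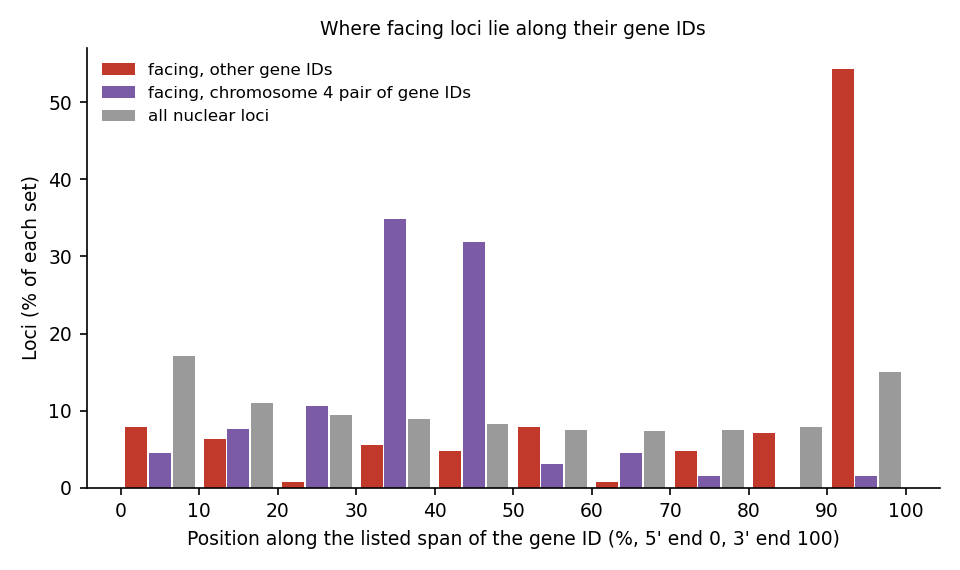
Share of loci (percent of each set) in steps of 10% of the listed span of their gene ID, from the 5' end (0) to the 3' end (100), for facing loci outside the chromosome 4 combination (red, 127), facing loci of that combination (purple, 66) and all nuclear loci (grey), over gene IDs with at least 5 loci. The red bar of the last 10% stands at 54.3%, against 15.02% for all nuclear loci.

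The convergent IDs ENSG00000064225 (plus) and ENSG00000057019 (minus) gave the single pair listed on both strands in 2 replicates. Their spans, chr3:98452646-98516503 and chr3:98514741-98620035, shared 1.76 kb. The plus-strand locus chr3:98515026-98515110 had 12, 0 and 4 reads in replicates 1, 2 and 3. It lay mostly inside a wider minus-strand locus, chr3:98514882-98515092, which had 11, 11 and 4 reads and was listed in all 3 replicates. The strands were thus nearly equal in replicates 1 and 3, and replicate 2 had the minus strand alone. No pair had both strands in all 3 replicates (0 of 120).

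On chromosome 16, ENSG00000140990 and ENSG00000140988 met in a stretch of only 85 nt. The plus-strand locus chr16:2011974-2012056 had 0, 15 and 0 reads, and it lay whole inside the minus-strand locus chr16:2011972-2012062, which had 0, 16 and 18. Replicate 2 listed both strands at almost the same level, and replicate 1 listed neither. A second convergent combination on that chromosome, ENSG00000162073 with ENSG00000127564, had 2 facing pairs in a shared 0.880 kb. At its stronger pair the plus-strand locus chr16:3022874-3022949 had 10, 0 and 0 reads against 11, 3 and 0 at chr16:3022838-3022949.

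The largest overlap, 120 nt, lay on chromosome 19. There the plus-strand locus chr19:19897508-19897693 of ENSG00000267419 had 12, 0 and 0 reads. The minus-strand locus chr19:19897559-19897678, listed under both ENSG00000081665 and ENSG00000267581, had 5, 0 and 6. On chromosome 14 the IDs ENSG00000100711 and ENSG00000088808 met in 71 nt, with 0, 10 and 0 reads at chr14:104200011-104200081 against 0, 8 and 0 at chr14:104200011-104200086. That pair rested wholly on replicate 2.

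Several convergent combinations had their strands in different replicates. On chromosome 17, ENSG00000141367 had 14 reads at chr17:57771961-57772054 in replicate 1 only. ENSG00000141378 had 0, 6 and 4 reads at chr17:57771964-57772058, a locus that differed from it by a few nt at each end. At chr3:186507688-186507777 ENSG00000156976 had 0, 16 and 9 reads, against 8, 0 and 0 of ENSG00000163918 at chr3:186507700-186507787. The combination with the most facing pairs after chromosome 4 was ENSG00000170921 with ENSG00000263644 on chromosome 17, with 4 pairs and a shared stretch of 25.6 kb. Of its 4 pairs, 1 had both strands in the same replicate, with 3 reads on each strand of replicate 2 at chr17:61505095-61505148. In its pair with the most reads the strands came apart: the plus strand had 4 reads in replicate 1 and the minus strand 13 in replicate 3, at chr17:61502514-61502627. On chromosome 14, ENSG00000100567 and ENSG00000139971 shared 19.5 kb and had 2 facing pairs, both with the strands in 1 same replicate.

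In 2 further combinations a short plus-strand span lay inside a longer minus-strand one, with 3 facing pairs each. ENSG00000198466, chr19:58372172-58376306, lay inside ENSG00000204514 and gave the most unequal of the 15 pairs with the most reads on the weaker strand. Its locus chr19:58376136-58376306 had 61, 12 and 5 reads, against 0, 0 and 9 at chr19:58376212-58376284, 8.67 times more in sum. ENSG00000181541, chr4:151503977-151505900, lay inside ENSG00000198589, whose peaks ran over 734 kb. Its locus chr4:151505664-151505824 had 30 reads in replicate 1 and faced 5 reads in replicate 2, and none of its 3 pairs had both strands in the same replicate.

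Divergent pairs were few and weak. At chr2:219826022-219826092 ENSG00000171450 had 6, 0 and 0 reads against 5, 4 and 0 of ENSG00000235024 at chr2:219825991-219826106. On chromosome 15, ENSG00000259635 had 6, 0 and 4 reads at chr15:64994041-64994184, against 0, 0 and 3 on the minus strand. Both pairs had both strands in 1 replicate, replicate 1 in the first and replicate 3 in the next. A divergent pair on chromosome 3, ENSG00000244300 with ENSG00000179348, had 3 reads on each strand, in replicate 1 on the plus strand and replicate 3 on the minus strand.

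The next comparison asked whether the strands of a pair were recovered together. Both strands were in the same replicate in 55 of 120 pairs, or 45.8% (exact 95% interval 36.7 to 55.2%). Of these, 54 had 1 such replicate and 1 had 2. In the remaining 65 pairs the strands came only from different replicates, so no single list held both. A strand with fewer than 3 reads in a replicate would not be listed there. Peaks of 1 replicate themselves overlapped across the strands in 53 pairs (44.2%). Pairs formed without replicate 1 had a same replicate in 73.0% and those without replicate 3 in 67.4%, with 1 replicate fewer to pair across. Replicate 1 listed both strands of 29 pairs out of 97 in which it listed either (29.9%), replicate 3 of 23 out of 85 (27.1%) and replicate 2 of 4 out of 40 (10.0%, exact interval 2.79 to 23.7%). Taken alone, the peaks of replicates 1, 2 and 3 gave 28, 4 and 23 facing pairs.

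Among the 86 pairs with exactly 1 replicate on each strand, 28 had the same one. The plus strand came from replicate 1 and the minus strand from replicate 3 in 21, and the reverse held in 17. Both strands came from replicate 1 in 13, from replicate 3 in 13 and from replicate 2 in 2. Pairs joining replicates 1 and 3, the larger lists, were therefore more numerous than those within either. Outside the chromosome 4 combination 37 of 85 pairs had a same replicate (43.5%, exact interval 32.8 to 54.7%), and under convergent IDs 25 of 52 did.

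**Figure D3:**
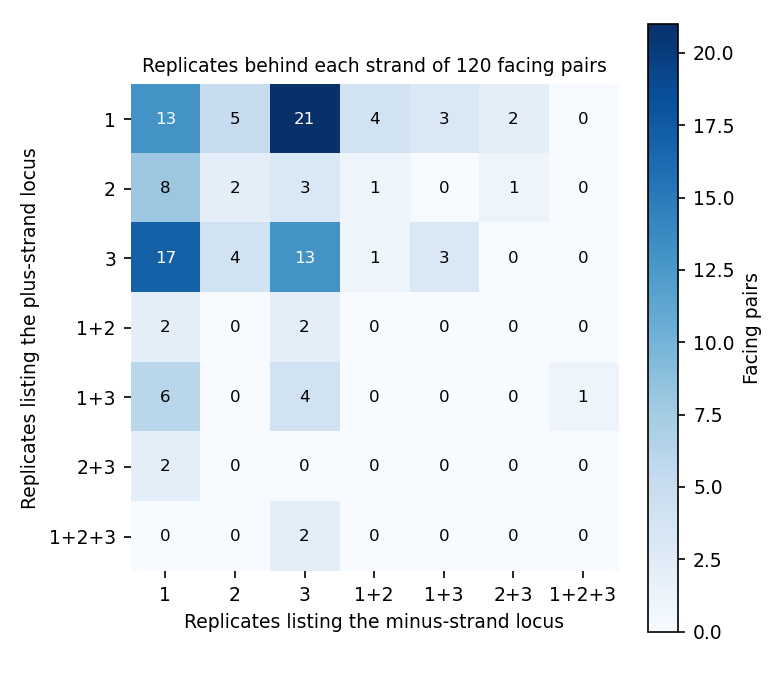
Number of facing pairs by the replicates that list the plus-strand locus (rows) and the minus-strand locus (columns), over 120 pairs; darker cells hold more pairs. The highest cell, 21, joins a plus strand of replicate 1 with a minus strand of replicate 3, and the cells of both strands from replicate 1 or from replicate 3 hold 13 each.

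Single facing loci were recovered in several replicates somewhat more often than nuclear loci in general, but the difference depended on width. At least 2 replicates listed 32 of 232 facing loci, 13.8% (exact 95% interval 9.63 to 18.9%), against a background of 8.55% of all nuclear loci. All 3 replicates listed 3 of the 232 facing loci and 1511 of the 172029 nuclear loci. Among loci of 100 nt or more the shares were 35.0% (21 of 60, 23.1 to 48.4%) and 28.7%, so they did not differ beyond the interval. Among loci of 70 to 99 nt they were 11.96% (11 of 92, 6.12 to 20.4%) and 5.64%. Under 70 nt, 0 of 80 facing loci were in at least 2 replicates, for which the exact 95% interval reaches 4.51%, against 0.819% of all. A merged locus is at least as wide as its peaks, and a wider locus can overlap the other strand more easily. With 2 lists merged, the share of facing loci in both was 4.11% without replicate 1, 9.63% without replicate 2 and 8.79% without replicate 3. The share of all nuclear loci was not computed for 2 lists. The 8.55% comes from 3 lists and is no background for these values.

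The listed reads of the strands were then compared within each pair, without scaling for the size of the lists. In 65 of the 120 pairs the strands came only from different replicates, so their ratio compares lists of unequal size. How close the reads of unrelated loci would be was not tested. Summed over replicates, the stronger strand had a median of 1.67 times the reads of the weaker, and 75 of 120 pairs were within 2-fold. The highest ratio was 10.7, at chr4:113972235-113972384, with 32 plus-strand reads against 3, all in replicate 1. In 8 pairs the ratio was above 5. The plus strand was stronger in 44 pairs, the minus strand in 55, and 21 were equal. Outside the chromosome 4 combination the plus strand led in 27, the minus strand in 44, and 14 were equal.

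These ratios rest on few reads. The weaker strand had a median of 4 reads and a highest value of 17, it stood at 3 reads, the lowest number in any list, in 54 pairs, and it reached 10 reads in 10 pairs. A peak under 3 reads is not in the lists, so a pair with a much weaker strand could not be kept, and the ratios are bounded by this floor. Within a replicate that listed both strands, the median ratio of minus-strand to plus-strand reads was 1 in replicate 1 (29 pairs, 0.0938 to 5), 0.900 in replicate 2 (4 pairs, 0.600 to 1.07) and 1 in replicate 3 (23 pairs, 0.308 to 2.67). Only 1 pair had both strands in more than 1 replicate, so whether a pair keeps its ratio between replicates could not be measured.

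**Figure D4:**
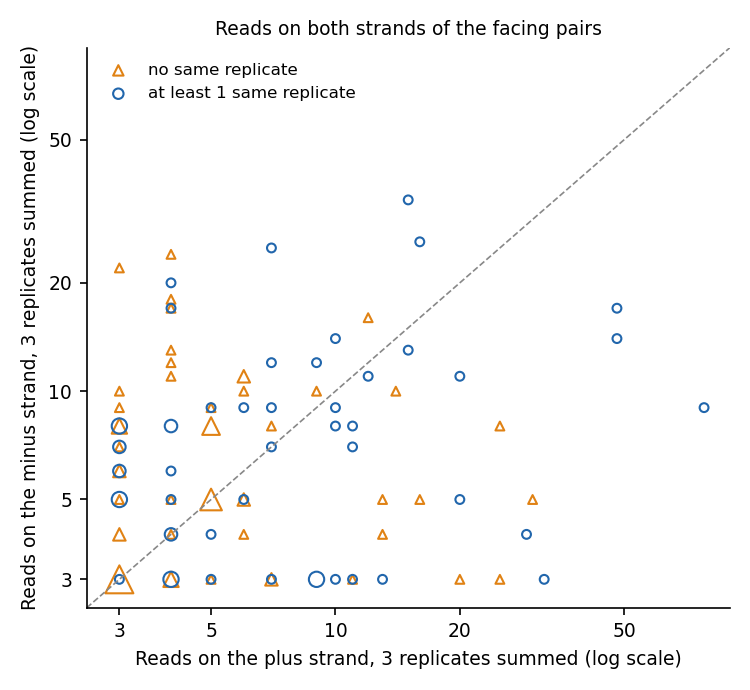
Reads on the plus strand against reads on the minus strand of each facing pair, 3 replicates summed, both axes on a log scale; blue circles are pairs with both strands in at least 1 same replicate, orange triangles the others, and a larger symbol stands for more pairs at that point. The dashed line marks equal reads; 75 of 120 pairs are within 2-fold of it, and 54 have their weaker strand at 3 reads.

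By replicate, the facing loci were balanced between the strands, which the rule favours because each pair holds a locus of each strand. The minus strand held 47.0%, 48.1% and 50.8% of their reads in replicates 1, 2 and 3, against 48.9%, 50.2% and 63.4% of the reads of the other nuclear loci. The log2 ratio of minus to plus reads was -0.17, -0.11 and 0.05 in facing loci and -0.06, 0.01 and 0.79 in the others. It was lower in facing loci in 3 of 3 replicates, by a mean of -0.32 ± 0.37 (SD, n = 3; exact two-sided sign-flip permutation test, p = 0.25, the smallest p that 3 replicates allow). Merging without replicate 3 kept 46 pairs and gave a mean difference of 0.30, the opposite sign, so no direction was established. The rule also draws the ratio of facing loci towards 0. In replicate 3 the difference of -0.75 thus mostly mirrors the 0.79 of the other loci. The test therefore cannot decide whether facing loci differ in strand ratio.

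The minus-strand excess of replicate 3 in the other loci was mainly one of locus number, as 61.3% of its other loci lay on the minus strand. Reads per locus added a little, with 5.06 per minus-strand locus and 4.63 per plus-strand locus. Among facing loci 52.0% of those listed in replicate 3 were on the minus strand, with 4.89 and 5.12 reads per locus. A facing pair holds a locus of each strand, so the rule itself draws the locus numbers towards equality.

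**Figure D5:**
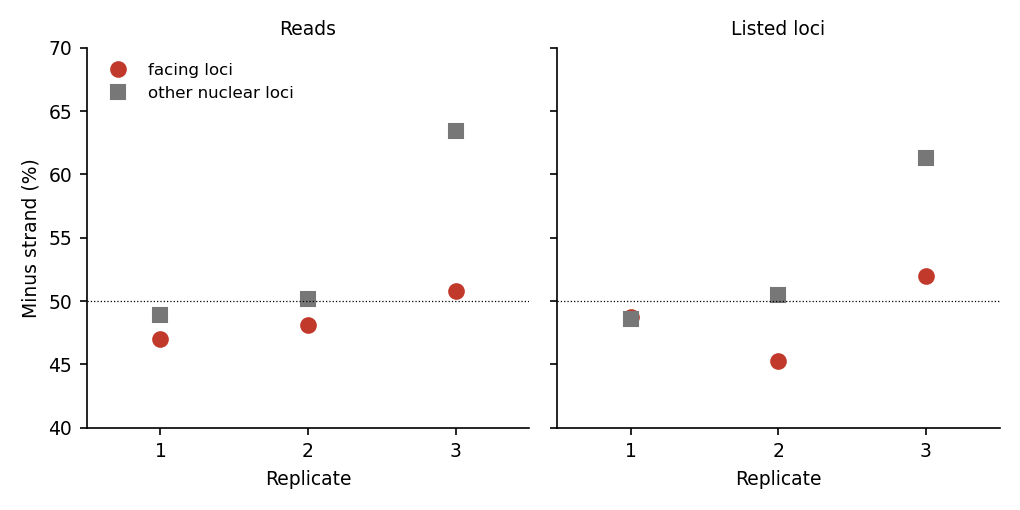
Minus-strand share in percent of reads (left) and of listed loci (right) in replicates 1, 2 and 3, for facing loci (red circles) and the other nuclear loci (grey squares); the dotted line marks 50% and the axis starts at 40%. In replicate 3 the other loci stand at 63.4% of reads and facing loci at 50.8%.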

How the data were processed

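Each of 3 sCLIP replicates has a list of peaks that the authors deposited, with position, strand, gene ID, p-value and a stretch of at most 4 nt. The build was hg19, per the submitters' processing notes, which name FastQC, SAMtools, STAR and bedtools. For the peak caller and the annotation no name is given in the sources used here. The deposited p-value stayed below 0.05 and was used only to filter peaks. Coordinates are another deposited column and are printed counted from 1. The last number of the peak name, at least 3, was read as reads; across peaks it ran against the p-value with a Spearman rho of -0.988, -0.973 and -0.964.

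A locus took its reads from the gene ID with the most, and shares were divided by the summed nuclear loci. Intervals are exact Clopper-Pearson intervals at 95% and cover counting error only. The merging was tested on simulated loci. None of the 13356 gene IDs (0) could be given a symbol from the reference. Python 3.11.15, pandas 2.3.3, numpy 2.4.6 and scipy 1.17.1 were used.

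The members, lists and tests were chosen with earlier results of these data known. The text names the 15 pairs with both strands in a same replicate and the most reads on the weaker strand, and the 10 gene ID combinations with the most facing pairs. Pairs named for unequal reads, separate replicates or divergent IDs were chosen after their values were seen.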

Additional observations from a re-analysis of the deposited data

Results flagged for a closer look

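Facing loci also occurred on the mitochondrial chromosome, which the comparisons left out. There 8 of 138 loci faced a locus of the other strand, 5.80% (exact 95% interval 2.54 to 11.1%), against 0.135% of nuclear loci. Of the 8 facing loci, 6 were among its 19 minus-strand loci and the rest among its 119 plus-strand ones. The 6 pairs therefore shared plus-strand loci and are not separate cases. In 6 of 6 both strands were in the same replicate. The spacing of loci on this chromosome was not taken into account.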

How the results depend on the processing

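Of 102 alternative values, 68 were counted as unchanged, 32 moved and 2 changed sign. The limits were 1.5 times for counts, 1 SD of the replicates for their means, the exact interval for shares and 10 points for the position. For the difference in strand log2 ratio from other loci, only a kept sign was asked. With peaks of p at or below the list median it was -0.79, against -0.32 in the main setting, and counted as unchanged. The SD of that difference over replicates was 0.37. Leaving out each replicate in turn gave 73 to 187 facing loci, 37 to 97 pairs, 0.0817 to 0.116% of nuclear loci, 53.6 to 73.0% of pairs with a same replicate, 4.11 to 9.63% of facing loci in at least 2 replicates, 29 to 66 gene ID combinations and 12 to 36 convergent ones. It also gave a mean log2 minus over plus ratio of -0.16 to 0.27 and a difference from other loci of -0.52 to 0.30; both changed sign without replicate 3, to 0.27 and 0.30.

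With only those peaks kept whose p was no higher than the median of their list, 88 facing loci in 46 pairs were found, or 0.103% of nuclear loci, with 9.09% in at least 2 replicates, a log2 ratio of -0.45, 28 gene ID combinations and 16 convergent ones. With at least 5 reads per peak there were 83 loci in 43 pairs, or 0.0985%, a log2 ratio of -0.24, 28 combinations and 15 convergent ones. An overlap of at least 50% of the shorter locus gave 0.0930% of nuclear loci, and leaving out the chromosome 4 combination gave 0.0968%. Asking for at least 5 loci per gene ID left 28 convergent combinations.

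The median position of facing loci outside chromosome 4 stayed between 92.3 and 99.4% under every alternative run on it. One of these measured each locus against the span of the other loci of its ID and again gave 93.1%. It moves only outermost loci, and these further out, so it could hardly change the median. Of the 127 loci, 35 were the 3'-most listed for their ID, and the effect of a locus extending its own span remains untested. The alternatives on orientation, on position and without the chromosome 4 combination were chosen after seeing the data. With 3 reads as the lowest number listed, strand ratios of most pairs have little depth. No paired analysis was possible because the labels give 1 group.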
